A study of Homo sapiens with 6 samples.

Results

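Transcription of 8 genes in which inherited mutations cause parkinsonism was measured in SH-SY5Y cells, a human neuroblastoma line, with and without the neurotoxin MPP+. The genes were PINK1, PARK7, FBXO7, LRRK2, VPS35, ATP13A2, DNAJC6 and SYNJ1. They were taken by name from 67051 gene identifiers in the count tables, with earlier results of these data known, and all 8 were found. All 8 also passed the filter on low counts, among 23133 genes tested. The assay was PRO-seq, a run-on method in which polymerases already engaged on DNA in isolated nuclei extend their RNA with biotin-labelled nucleotides, so that a count reflects ongoing transcription and not stored mRNA. The groups were untreated SH-SY5Y cells, cells given 0.1 mM MPP+ for 0.5 h and cells given 0.1 mM MPP+ for 24 h, with 2 libraries in each of the 3 groups. All groups were grown in the same high-glucose medium, and all came from 1 cancer cell line. The sources used here do not say if the libraries of a group are separate cultures, so the p-values below measure the spread between libraries, which may be technical.

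The proteins act at a few connected places in the cell. PINK1 is a kinase that accumulates on damaged mitochondria and starts their removal by mitophagy, and PARK7 (DJ-1) is a redox-sensitive protein that protects against oxidative stress. FBXO7 is the substrate-binding F-box subunit of a ubiquitin ligase. LRRK2 is a kinase that phosphorylates Rab GTPases, VPS35 is the core of the retromer complex that recycles cargo from endosomes, and ATP13A2 is a lysosomal transporter that exports polyamines. DNAJC6 (auxilin) and SYNJ1 (synaptojanin 1) act in sequence at nerve terminals to strip the clathrin coat from newly formed synaptic vesicles. MPP+ inhibits complex I of the respiratory chain and is widely used to model parkinsonism in cells and animals.

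None of the 8 genes passed the test at 0.5 h or at 24 h of MPP+. The gene nearest to a difference was PINK1, whose level averaged 10.6 ± 0.686 CPM after 24 h of MPP+ and 14.7 ± 3.62 CPM in untreated cells (SD, n = 2 libraries each). DNAJC6 was the most steady, at 150 to 168 CPM in all 6 libraries. CPM is a library-size scaled count, and values were further scaled by the trimmed mean of M-values (TMM). Levels and fold changes are therefore relative to the other genes, and a shift shared by most genes would not show. A gene was called when its Benjamini-Hochberg adjusted p from the quasi-likelihood test of edgeR was at or below 0.05. In these bulk libraries, fewer cells that transcribe a gene and less transcription per cell cannot be told apart.

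**Figure D1:**
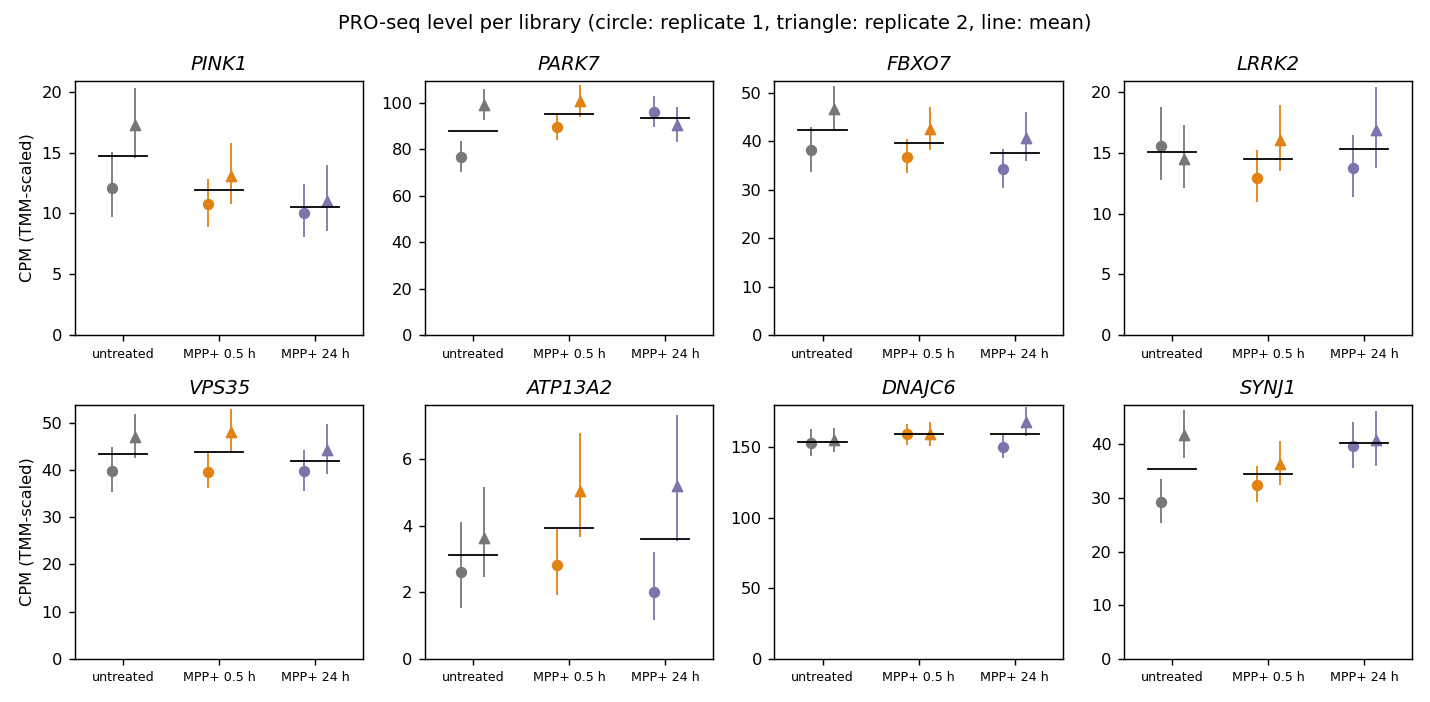
TMM-scaled CPM of each of the 8 genes (vertical axes from 0, a scale of its own in each panel) in untreated, 0.5 h and 24 h libraries; circles and triangles are the 2 libraries, vertical lines their 95% counting intervals and horizontal lines the group means. Both 24 h libraries of PINK1, at 10.1 and 11.04 CPM, lie below both untreated libraries, at 12.1 and 17.2 CPM, while the other 7 genes overlap between these groups.

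The libraries held 5983066 to 11707612 assigned counts. The share of counts on genes of mitochondrial DNA was 0.144% and 0.149% in untreated libraries, 0.0275% and 0.0372% at 0.5 h, and 0.029% and 0.0334% at 24 h. The 8 genes together held 0.0361% and 0.0432% of the counts in untreated libraries, 0.0372% and 0.042% at 0.5 h, and 0.038% and 0.0429% at 24 h. Of 12 markers of adrenergic neuroblastoma, 11 exceeded 10 CPM in every library, and their summed level was 3075 to 4169 CPM. Tyrosine hydroxylase (TH), which makes the dopamine precursor, had 2 to 10 counts per library, so these libraries held few counts of a gene that dopamine neurons use. DBH, another of the 12 markers, had 198 to 252 CPM. Of 4 glial markers, AQP4 had 0 counts throughout, GFAP had 29 to 45 counts and MBP 56 to 139 counts per library. The summed level of the 4 was 13.7 to 19.5 CPM. Of 3 epithelial markers 1 exceeded 10 CPM in every library, EPCAM at 126 to 175 CPM. Of 3 endothelial markers 1 did, VWF at 12.9 to 16.3 CPM. Of 3 blood and 3 fibroblast markers 0 did.

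Start-site sequences were available for 7 of the 8 genes, with 11 windows in all, since FBXO7, DNAJC6 and SYNJ1 have more than 1 RefSeq start in the table used. For these the outermost start was used unless stated, and which starts SH-SY5Y cells use was not tested. Windows of 4 genes are shown: PARK7 and LRRK2 are the genes of highest and lowest level per kb of span, VPS35 has a divergent neighbour, and the starts of DNAJC6 differ most in base composition. Each is the RefSeq window (GRCh38.p14) from 250 bases before to 50 bases after the start, written 5′ to 3′ on the strand of the gene. Capitals mark matches, on either strand, to 7 short motifs: the GC box (GGGCGG), the CCAAT box (CCAAT), the TATA box (TATAAA), the cAMP response element (TGACGTCA), an ETS site (CCGGAAG), the NRF1 site and the E-box (CACGTG). No marked stretch touches another.
PARK7 (chr1:7961461-7961760, plus strand): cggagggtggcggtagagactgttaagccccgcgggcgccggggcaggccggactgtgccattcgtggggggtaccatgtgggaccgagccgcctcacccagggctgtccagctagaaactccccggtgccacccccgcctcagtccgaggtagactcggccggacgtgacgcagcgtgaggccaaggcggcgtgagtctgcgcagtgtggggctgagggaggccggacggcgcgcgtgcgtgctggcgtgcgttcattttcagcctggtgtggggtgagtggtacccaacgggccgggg
LRRK2 (chr12:40224747-40225046, plus strand): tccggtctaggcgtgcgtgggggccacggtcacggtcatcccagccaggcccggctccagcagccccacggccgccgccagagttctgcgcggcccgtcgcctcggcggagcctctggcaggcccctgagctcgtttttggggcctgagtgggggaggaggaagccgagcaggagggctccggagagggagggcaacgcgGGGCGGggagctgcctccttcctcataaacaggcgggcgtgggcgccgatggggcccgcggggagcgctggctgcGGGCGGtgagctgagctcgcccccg
VPS35 (chr16:46689129-46689428, minus strand): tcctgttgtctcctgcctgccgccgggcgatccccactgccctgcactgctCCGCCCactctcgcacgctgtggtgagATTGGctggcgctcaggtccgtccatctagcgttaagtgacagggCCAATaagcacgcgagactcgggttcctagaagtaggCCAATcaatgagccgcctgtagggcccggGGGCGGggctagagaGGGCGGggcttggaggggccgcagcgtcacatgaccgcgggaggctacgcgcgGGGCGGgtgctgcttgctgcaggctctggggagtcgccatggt
DNAJC6 (chr1:65264499-65264798, plus strand): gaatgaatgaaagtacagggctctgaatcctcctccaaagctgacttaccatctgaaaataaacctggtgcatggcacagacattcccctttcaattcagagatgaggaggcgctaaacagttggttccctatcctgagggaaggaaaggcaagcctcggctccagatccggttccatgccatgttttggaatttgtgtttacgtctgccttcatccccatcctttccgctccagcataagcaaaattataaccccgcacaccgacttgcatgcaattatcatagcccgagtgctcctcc
DNAJC6, inner start (chr1:65309293-65309592, plus strand): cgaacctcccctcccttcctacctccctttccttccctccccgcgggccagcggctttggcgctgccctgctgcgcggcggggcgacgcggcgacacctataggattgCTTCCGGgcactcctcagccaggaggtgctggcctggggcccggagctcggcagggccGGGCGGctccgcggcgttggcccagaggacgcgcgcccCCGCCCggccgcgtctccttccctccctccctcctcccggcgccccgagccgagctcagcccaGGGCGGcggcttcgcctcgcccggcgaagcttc

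At the outermost starts, the LRRK2 window held 74.7% G+C and 32 CpG dinucleotides, the PARK7 window 70.3% and 31, and the VPS35 window 67.0% and 25. The outer DNAJC6 window held 48.7% and 8, while its inner window held 76.0% and 37. ATP13A2 (73.7%) and FBXO7 (70.0%) were also rich in G+C, and SYNJ1 had 58.7% at its outermost start but 73.7% and 76.0% at its other starts. Over all 35116 windows the median was 58.7% G+C and 14 CpG. The GC box was matched at the outermost start of 5 of the 7 genes, against 44.95% of all windows: 4 times in VPS35, 3 times in ATP13A2, 2 times each in FBXO7 and LRRK2, and once in SYNJ1. It was also matched 3 times at the inner start of DNAJC6, so that PARK7 was the 1 gene of the 7 with no match at any listed start. The CCAAT box was matched 3 times in VPS35 alone (34.6% of all windows), and the NRF1 site once, at the outermost start of FBXO7 (5.78% of all windows). The ETS site was matched at the inner starts of FBXO7 and DNAJC6 (10.3% of all windows). The TATA box (11.5% of all windows), the cAMP response element (1.85%) and the E-box (7.26%) were matched in 0 of the 11 windows. These matches describe letters in the windows, and no factor's binding was measured.

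Among the genes of mitochondrial quality control, PINK1 (ENSG00000158828.8; hg38 chromosome 1, 20633455 to 20651511, plus strand) had 12.1 and 17.2 CPM in untreated libraries, 10.7 and 13.1 CPM at 0.5 h, and 10.1 and 11.04 CPM at 24 h. The untreated libraries differed more from each other than either treated pair did, and the 2 highest of the 6 values were an untreated and a 0.5 h library. At 24 h against untreated the groups did not overlap, and the log2 fold change was -0.49 ± 0.23 (SE; 95% interval -1.003 to 0.03), a fold of 0.713 with an interval from 0.499 to 1.02. The unadjusted p of edgeR was 0.0611 and the adjusted p was 0.634. At 0.5 h against untreated the log2 fold change was -0.31 ± 0.22 (-0.81 to 0.18), and at 24 h against 0.5 h it was -0.17 ± 0.23. Leaving out 1 library moved the 0.5 h value against untreated between -0.54 (without untreated replicate 1, unadjusted p of 0.0399 in edgeR) and -0.04 (without untreated replicate 2). These values rest on 68 to 147 counts per library, where counting error alone is 8.25% to 12.1%. The exons of PINK1-AS, an antisense transcript, cover 1907 bases of PINK1 exons. PINK1-AS had 2 to 11 counts, and with the strand setting of the counting not given, reads of the pair cannot be told apart. Leaving out 1 library moved the 24 h value between -0.71 and -0.21. It was -0.21 without untreated replicate 2 and -0.71 without untreated replicate 1, with an unadjusted p of 0.0132 in edgeR, and no adjusted p passed.

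PARK7 (ENSG00000116288.13; chromosome 1, 7954291 to 7985505, plus strand) had 76.5 and 99.0 CPM in untreated libraries, 89.3 and 100.5 CPM at 0.5 h, and 96.1 and 90.4 CPM at 24 h. The lowest and the second highest of its 6 values were both untreated, so the treated libraries fell inside or next to the untreated range. Relative to untreated, the log2 fold change was 0.11 ± 0.13 (-0.19 to 0.41) at 0.5 h and 0.09 ± 0.13 (-0.21 to 0.39) at 24 h. With 530 to 1014 counts per library, PARK7 was measured more tightly than PINK1, and its intervals leave out a 1.5-fold change either way.

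FBXO7 (ENSG00000100225.18; chromosome 22, 32474676 to 32498829, plus strand), the adaptor that brings substrates to a Cullin-RING ligase and that also takes part in mitophagy, had 38.1 and 46.6 CPM in untreated libraries, 36.8 and 42.4 CPM at 0.5 h, and 34.2 and 40.7 CPM at 24 h. In each group replicate 2 was the higher library, and the groups overlapped. The log2 fold change was -0.10 ± 0.15 (-0.43 to 0.23) at 0.5 h and -0.18 ± 0.15 (-0.52 to 0.16) at 24 h against untreated, with an edgeR adjusted p of 0.809 at 24 h. The 24 h value lay between -0.32 without untreated replicate 1 and -0.04 without untreated replicate 2.

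LRRK2 (ENSG00000188906.17; chromosome 12, 40196744 to 40369285, plus strand) had 15.6 and 14.5 CPM in untreated libraries, 12.9 and 16.1 CPM at 0.5 h, and 13.7 and 16.9 CPM at 24 h. The treated pairs each held 1 library below and 1 above both untreated values. Against untreated, LRRK2 had a log2 fold change of -0.06 ± 0.19 (-0.49 to 0.38) at 0.5 h and of 0.02 ± 0.20 (-0.43 to 0.46) at 24 h. LRRK2 spans 172.542 kb, the longest of the 8 genes, yet gave only 104 to 147 counts per library.

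VPS35 (ENSG00000069329.18; chromosome 16, 46656132 to 46689518, minus strand) had 39.8 and 46.9 CPM in untreated libraries, 39.6 and 48.1 CPM at 0.5 h, and 39.7 and 44.2 CPM at 24 h. Replicate 1 was almost the same in all 3 groups, and replicate 2 was higher in each. The log2 fold change was 0.01 ± 0.14 (-0.31 to 0.32) at 0.5 h and -0.05 ± 0.14 (-0.38 to 0.27) at 24 h against untreated. ORC6, a subunit of the origin recognition complex, starts 125 bases away on the opposite strand. ORC6 had 57.1 and 51.3 CPM at 24 h, against 90.7 and 65.3 CPM in untreated libraries, a log2 fold change of -0.52 ± 0.20 with an edgeR adjusted p of 0.595. The values of the 2 genes of this divergent pair are given side by side, and their difference was not tested.

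ATP13A2 (ENSG00000159363.19; chromosome 1, 16985958 to 17011928, minus strand) was the gene with the fewest counts, 17 to 44 per library. Its levels were 2.60 and 3.64 CPM in untreated libraries, 2.82 and 5.06 CPM at 0.5 h, and 2.01 and 5.20 CPM at 24 h. The 24 h libraries held both the lowest and the highest of the 6 values. The log2 fold change was 0.29 ± 0.45 (-0.73 to 1.31) at 0.5 h and 0.13 ± 0.48 (-0.96 to 1.21) at 24 h against untreated, and neither interval excludes a 2-fold higher level. Counting error alone was 15.1% to 24.3% of its counts. The antisense transcript AL049569.1 lies across 19134 bases of ATP13A2 and 189 bases of its exons, and with 38 to 99 counts it outnumbered ATP13A2, so the ATP13A2 counts are uncertain where strand is concerned.

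Of the genes for clathrin uncoating, DNAJC6 (ENSG00000116675.16; chromosome 1, 65248219 to 65415869, plus strand) had 153 and 155 CPM in untreated libraries, 159 and 159 CPM at 0.5 h, and 150 and 168 CPM at 24 h. The 0.5 h libraries both lay above the untreated ones, and the 24 h libraries lay on either side of them. Against untreated, DNAJC6 had a log2 fold change of 0.05 ± 0.10 (-0.18 to 0.28) at 0.5 h and of 0.05 ± 0.10 (-0.18 to 0.28) at 24 h. With 1032 to 1805 counts per library, counting error of DNAJC6 was 2.35% to 3.11%, the lowest of the 8. The antisense transcript AL139294.1 lies across 27066 bases of DNAJC6 and 0 bases of its exons, and had 0 counts. RNU2-15P, on the same strand, shares 54 exon bases with DNAJC6 and had 2 to 9 counts. The overlap setting of the counting was not given.

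SYNJ1 (ENSG00000159082.18; chromosome 21, 32628759 to 32728048, minus strand), the phosphatase that removes the lipid signal holding clathrin adaptors to the vesicle, had 29.2 and 41.7 CPM in untreated libraries, 32.4 and 36.3 CPM at 0.5 h, and 39.7 and 40.7 CPM at 24 h. The 24 h libraries were close together and lay above both 0.5 h libraries, while the untreated libraries spread across the whole range. The log2 fold change was 0.17 ± 0.17 (-0.21 to 0.56) at 24 h against untreated and 0.23 ± 0.17 (-0.15 to 0.61) at 24 h against 0.5 h, where the edgeR adjusted p was 0.837. Without untreated replicate 2 the 24 h value against untreated was 0.45, with an unadjusted p of 0.0187 and no adjusted p past the threshold. PAXBP1-AS1, which in GENCODE 29 starts 67 bases away on the opposite strand, had a log2 fold change of 0.04 ± 0.14 at 24 h against untreated. The outermost RefSeq start of SYNJ1 lies further out, inside PAXBP1-AS1, so by that start the 2 genes overlap.

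**Figure D2:**
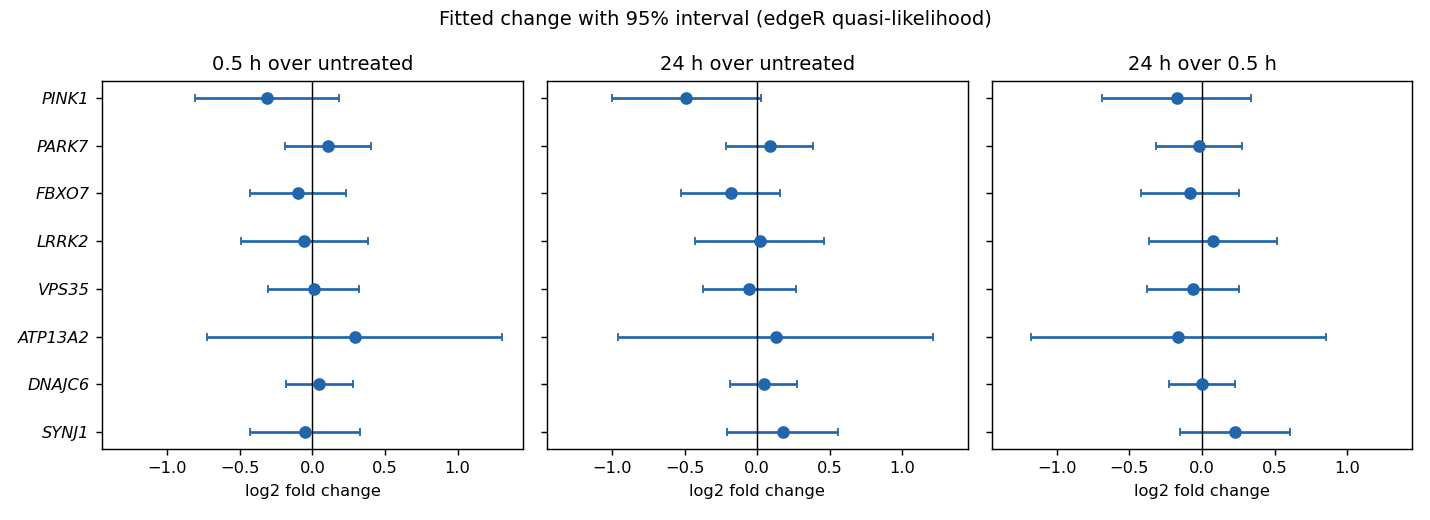
Fitted log2 fold change (horizontal axes) of each gene in the 3 comparisons, with points for the estimates and bars for 95% intervals from edgeR. Every interval includes 0, and the bars of ATP13A2 and PINK1 are the widest.

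Counted together, 0 of the 8 genes were called at 0.5 h against untreated, where 0.0735% of all tested genes were. At 24 h against untreated 0 of 8 were called, beside 0.0692% of all genes, and at 24 h against 0.5 h 0 of 8, beside 0% of all genes. At an unadjusted p under 0.05 the count was also 0 of 8 in each comparison, by edgeR and by the Wald test of DESeq2, while 2.46%, 8.1% and 6.42% of all genes had such a p by edgeR. Groups that did not overlap were found for 1 of 8 genes in each comparison: DNAJC6 at 0.5 h against untreated (27.4% of all genes), PINK1 at 24 h against untreated (37.3%) and SYNJ1 at 24 h against 0.5 h (38.4%). These counts do not exceed the shares over all genes. The median log2 fold change of the 8 genes was -0.02 at 0.5 h and 0.03 at 24 h against untreated, beside 0.01 and 0.00 over all genes, with 4 of the 8 above 0 at 0.5 h (52.1% of all genes) and 5 at 24 h (50.4%). At 24 h against 0.5 h 2 of the 8 lay above 0, beside 50.5% of all genes, and the median was -0.04.

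The intervals bound what these libraries could have missed for each gene relative to the other genes, given the spread between libraries. That spread may be technical, and the intervals would then not cover differences between cultures. A change in transcription shared by most genes was not measured. The 95% interval lay within a 1.5-fold change either way for 6 of the 8 genes at 0.5 h and 6 at 24 h against untreated, all but PINK1 and ATP13A2. At 24 h against 0.5 h it did so for 5, with the SYNJ1 interval reaching 0.61 on the log2 scale. It lay within a 2-fold change for 7 genes at 0.5 h and 6 at 24 h against untreated, and for 7 at 24 h against 0.5 h. A p that misses the threshold does not show that a gene stayed the same, and for PINK1 the 24 h interval runs from a 0.499-fold level to a 1.02-fold level. The authors' deposited tables of differential genes, which list 17 genes at 0.5 h and 24 at 24 h, hold 0 of the 8.

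The spread between libraries was also compared by replicate number. Replicate 2 was above replicate 1 in all 3 groups for 5 of the 8 genes (PINK1, FBXO7, VPS35, ATP13A2 and SYNJ1), beside 22.3% of all tested genes, with 21.7% the other way round. Whether 5 of 8 differs from that share was not tested. The gap was widest for ATP13A2 at 24 h, where replicate 2 exceeded replicate 1 by 1.27 on the log2 scale. It was 0.50 for PINK1 and 0.51 for SYNJ1 in untreated libraries. DNAJC6 differed by at most 0.16. The biological coefficient of variation fitted by edgeR ran from 0.0843 for DNAJC6 to 0.268 for ATP13A2, against a median of 0.112 over all tested genes.

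**Figure D3:**
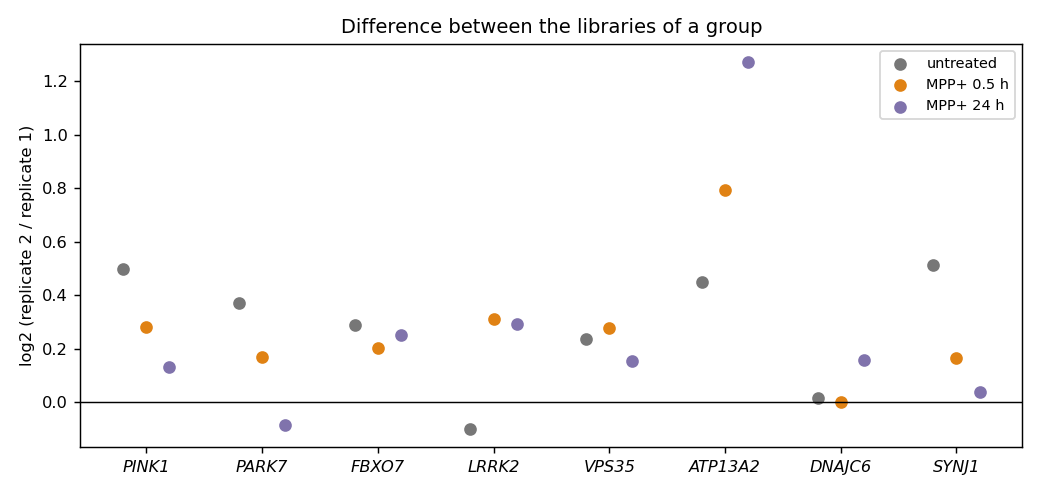
Log2 ratio of replicate 2 to replicate 1 (vertical axis) for each gene, with 1 point for each group. The points of ATP13A2 reach 1.27, and those of DNAJC6 stay at or below 0.16.

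Levels of different genes were compared per kilobase, since longer genes can collect more reads. In untreated cells the order by CPM per kb of gene span was PARK7 (2.81 ± 0.509), FBXO7 (1.75 ± 0.247), VPS35 (1.30 ± 0.15), DNAJC6 (0.917 ± 0.00655), PINK1 (0.813 ± 0.2), SYNJ1 (0.357 ± 0.0897), ATP13A2 (0.120 ± 0.0282) and LRRK2 (0.0873 ± 0.0043; SD, n = 2). The order by span was the same at 0.5 h and at 24 h. Of the 7 neighbouring pairs in it, DNAJC6 and PINK1 overlapped between libraries in untreated cells, ATP13A2 and LRRK2 overlapped at 24 h, and 0 pairs overlapped at 0.5 h. At 24 h PARK7 had 2.99 ± 0.128 CPM per kb of span, PINK1 0.584 ± 0.038 and LRRK2 0.0887 ± 0.0129.

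**Figure D4:**
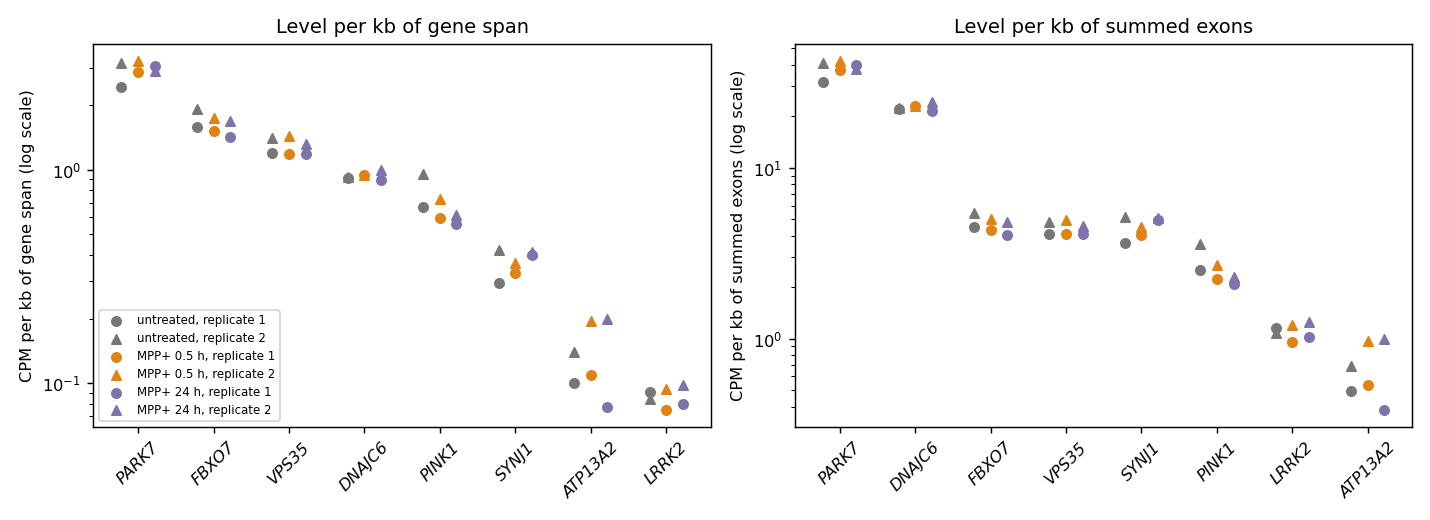
CPM per kb of gene span (left) and per kb of summed exons (right), both on log scales, for the 8 genes in each of the 6 libraries. PARK7 is highest in both panels, and DNAJC6 moves from the fourth place by span to the second by exons.

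If the counting took exons only, the exon length is the proper divisor, and the feature setting is not given in the sources used here. Per kb of summed exons in untreated cells, PARK7 had 36.6 ± 6.63 CPM, DNAJC6 22.1 ± 0.158, FBXO7 4.97 ± 0.701, VPS35 4.46 ± 0.513, SYNJ1 4.39 ± 1.10, PINK1 3.04 ± 0.748, LRRK2 1.12 ± 0.0549 and ATP13A2 0.593 ± 0.14. PARK7 thus led on either length, and LRRK2 and ATP13A2 were the lowest pair on either, in opposite order. FBXO7 and VPS35 overlapped in every group, VPS35 and SYNJ1 in untreated and 0.5 h libraries, and LRRK2 and ATP13A2 at 0.5 h. Across 14351 protein-coding genes the log count rose with a slope of 0.473 on log exon length and 0.158 on log span when both were fitted together. Division by a length assumes counts in proportion to it, and both slopes were shallower, so the per-kb orders place long genes lower than this trend would. Without division, LRRK2 had 15.1 CPM in untreated cells, beside 14.7 CPM for PINK1 and 3.12 CPM for ATP13A2.

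Profiles over the 6 libraries were compared by the root mean square (RMS) difference of centred log2 CPM, among 13815 tested genes with a mean of at least 100 counts. The gene nearest to PINK1 was UCN, which encodes the stress peptide urocortin, at 0.0672 log2 units, followed by METRN at 0.0796, and only 8 genes lay within 0.1. DNAJC6, whose profile is nearly flat, was nearest to AP5M1 at 0.00719 and had 3121 genes within 0.1. PARK7 was nearest to COQ5, an enzyme of coenzyme Q synthesis, at 0.0228, FBXO7 to PRXL2A at 0.0274, LRRK2 to CDH4 at 0.0296 and SYNJ1 to TMEM216 at 0.0334. ATP13A2 had 0 genes within 0.1, and its nearest was SAMD10 at 0.111. Among the 8 themselves, FBXO7 and VPS35 were the closest, at 0.0671. With 6 libraries these distances describe likeness only.

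The wider pathways were read from 8 lists of 236 entries, chosen with earlier results of these data known. The first lists were mitophagy, redox partners of PARK7, the ligase of FBXO7, and LRRK2 and its Rab substrates. The others were retromer, polyamine transport with the V-ATPase, clathrin-mediated endocytosis, and other parkinsonism genes. Of the distinct genes 219 were tested, and in the fit by group 0 were called in any of the 3 comparisons by edgeR, nor by DESeq2. This depends on the fit. With the replicate number as a block, edgeR called 5 of the 219 listed genes at 24 h against untreated (GAK, ATP13A1, ESD, PRDX3 and YWHAG). Over all genes it called 685 of 23133 there. At 24 h against 0.5 h it called 3 of the 219 (SPAG9, ATP13A1 and PRDX3), beside 412 of 23133. Neither share of the listed genes exceeds the share over all genes. At an unadjusted p under 0.05, edgeR gave 2 higher and 4 lower at 0.5 h against untreated (2.74% of the listed genes, beside 2.46% of all genes). At 24 h against untreated it gave 6 higher and 12 lower (8.22%, beside 8.1%). DESeq2, fitted to all 67051 identifiers without the filter, gave 5 listed genes there and 754 over all identifiers. Its counts are therefore over a different set of genes than those of edgeR. The list medians at 0.5 h lay between -0.05, for clathrin-mediated endocytosis, and 0.08, for the redox genes, on the log2 scale, beside 0.01 over all genes. At 24 h they lay between -0.06, for the FBXO7 ligase, and 0.04, again for the redox genes, beside 0.00 over all genes.

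**Figure D5:**
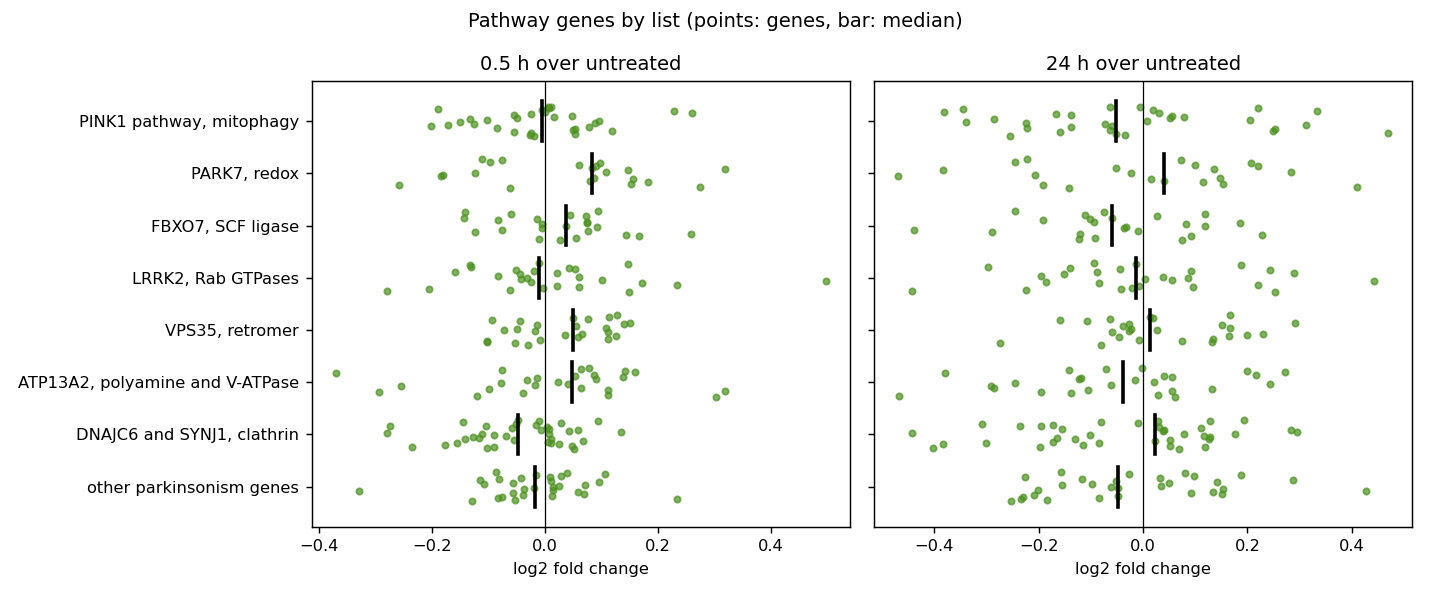
Log2 fold change (horizontal axes) of each tested gene of the 8 pathway lists at 0.5 h and at 24 h against untreated; points are genes and bars are list medians. The medians lie between -0.06 and 0.04 at 24 h, close to 0.

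The listed genes with the smallest p at 24 h were relatives of genes described above. GAK, the second auxilin, which does in most tissues what DNAJC6 does at the synapse, had 66.2 and 66.4 CPM at 24 h, against 89.6 and 90.7 CPM in untreated libraries. Its log2 fold change was -0.44 ± 0.09, with an edgeR unadjusted p of 0.000949 and an adjusted p of 0.323, or 0.0049 with the replicate block. At 0.5 h GAK had 75.6 and 73.0 CPM, between the other groups, while DNAJC6 stayed within 150 to 168 CPM throughout. ATP13A1, the relative of ATP13A2 that removes misplaced proteins from the endoplasmic reticulum membrane, had 71.1 and 76.6 CPM at 24 h, against 107.7 and 96.4 CPM in untreated libraries. Its log2 fold change was -0.47 ± 0.11, with an edgeR adjusted p of 0.383. That adjusted p was 0.0439 without the filter on low counts and 0.00451 with the replicate block, so the call for ATP13A1 rests on those choices. The difference between GAK and DNAJC6, or ATP13A1 and ATP13A2, was not tested.

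Other listed genes near the top at 24 h against untreated also missed the threshold in the fit by group. ESD, an esterase on the redox list, had 58.4 and 66.2 CPM at 24 h, against 45.2 and 48.3 CPM in untreated libraries (log2 fold change 0.41 ± 0.11, edgeR adjusted p 0.522, or 0.0283 with the block). PRDX3, the mitochondrial peroxiredoxin that removes hydrogen peroxide, had 39.4 and 38.6 CPM at 24 h, against 54.3 and 47.7 CPM in untreated libraries (-0.38 ± 0.12, edgeR adjusted p 0.553, or 0.0486 with the block). TOMM40, the import channel of the outer mitochondrial membrane through which PINK1 enters, had 29.1 and 26.5 CPM at 24 h, against 38.4 and 34.2 CPM in untreated libraries (-0.38 ± 0.13, edgeR adjusted p 0.574). For each of these genes the groups did not overlap, as was so for 37.3% of all genes. ODC1, the first enzyme of polyamine synthesis, had 39.7 and 44.5 CPM at 24 h, against 62.8 and 46.8 CPM in untreated libraries (-0.38 ± 0.15, edgeR adjusted p 0.602). COPS8, a subunit of the signalosome that regulates Cullin ligases, had 21.2 and 23.7 CPM at 24 h, against 30.3 and 30.4 CPM in untreated libraries (-0.44 ± 0.14, edgeR adjusted p 0.553).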

How the data were processed

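PRO-seq was measured in 6 SH-SY5Y libraries. Per the file headers, trimmed reads were aligned with Bowtie2. The submitters' processing notes give hg38 as the build and name featureCounts 2.0.1, Bowtie2 2.4.2, cutadapt 1.16.5, DESeq2 2.11.40.6, SAMtools 1.13 and deepTools 3.5.1.0.0, without their roles. Settings for strand, feature type and multimapped reads were not given in the sources used here. Raw counts per gene were deposited for each library. Differential genes were deposited too, by the authors, with a mean signal, a log2 fold change, a Wald score and p-values per the file headers, of which the list of genes alone was used. Symbols for the 67051 identifiers came from a supplied name table (42023) or from GENCODE 29 (16527), and 8501 had none. All columns of per-sample values were used.

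Counts were filtered with filterByExpr by group, TMM-normalized and fitted with edgeR 4.0.16 (R 4.3.3), all 6 libraries in 1 fit by group. Two-sided quasi-likelihood p-values were adjusted over 23133 genes, with a threshold of 0.05. DESeq2 1.42.0 was an alternative, with other scalings, filters, a replicate term and leaving out each library. The scripts were tested on simulated data. Library totals set the precision: 0 counts allow up to 3 counts, 2.56e-05% to 5.01e-05% of a total. Without molecular identifiers, intervals and floors cover counting error only. The libraries of a group differed by more than counting error (chi-square per degree of freedom 5.46 untreated, 8.92 at 0.5 h and 4.00 at 24 h), so none was a copy.

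Gene spans and exon lengths came from GENCODE 29. Genes and lists were chosen with earlier results of these data known. All 8 genes are named. From each list the rule allowed the 2 genes of smallest p in each comparison, for each of the 8 the 2 genes of nearest profile with a mean of at least 100 counts, and overlapping or adjacent genes; not all of these are printed.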

Additional observations from a re-analysis of the deposited data

How the results depend on the processing

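In every alternative run 0 of the 8 genes were called. Over all genes, edgeR called 0 higher and 17 lower at 0.5 h against untreated, 0 and 16 at 24 h against untreated, and 0 and 0 at 24 h against 0.5 h. Without the filter on low counts these were 20 and 46, 130 and 115, and 29 and 44. With the replicate number as a replicate block they were 15 and 42, 301 and 384, and 116 and 296. DESeq2 called 13 higher at 24 h against untreated. Leaving out 1 library gave 9 to 19 lower at 0.5 h (9 without 0.5 h replicate 1), and 0 to 1 higher and 8 to 16 lower at 24 h (10 when either 24 h library was dropped, 8 without untreated replicate 1). Deviations of same-numbered libraries correlated across genes with r between 0.293 and 0.328, but with 2 numbers this does not show that they were paired. Under the block PINK1 at 24 h against untreated had an unadjusted p of 0.0146 and an edgeR adjusted p of 0.160, the smallest of the 8 genes. The listed genes that passed under the block are named above. Of 165 member values under other settings 5 changed sign: VPS35 at 0.5 h against untreated was -0.011 with upper-quartile factors and -0.0048 with a mean of at least 50 counts, PARK7 at 24 h against 0.5 h was 0.010 with upper-quartile factors, and DNAJC6 in that comparison was 0.032 and 0.0083 under the same settings. ATP13A2 is absent under the minimum of 50. Leaving out 1 library turned the sign of 29 of 144 log2 fold changes, with these ranges: at 0.5 h against untreated ATP13A2 -0.16 to 0.68, FBXO7 -0.24 to 0.045, LRRK2 -0.22 to 0.098, PARK7 -0.062 to 0.30, SYNJ1 -0.28 to 0.23 and VPS35 -0.14 to 0.15; at 24 h against untreated ATP13A2 -0.64 to 0.72, DNAJC6 -0.035 to 0.12, LRRK2 -0.13 to 0.17, PARK7 -0.087 to 0.28, SYNJ1 -0.057 to 0.45 and VPS35 -0.17 to 0.060; at 24 h against 0.5 h ATP13A2 -0.93 to 0.43, DNAJC6 -0.080 to 0.075, FBXO7 -0.21 to 0.042, LRRK2 -0.080 to 0.23, PARK7 -0.11 to 0.062 and VPS35 -0.20 to 0.076. The cause was not tested. ATP13A2 has the fewest counts of the 8 genes, its 24 h libraries differ beyond counting error, and 2 libraries per group limit all 8 genes.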
